A study of Mus musculus with 2 samples.

Results

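The 10 genes described here make, conjugate, move and sense bile acids in the liver, and their chromatin was compared between livers with and without Mettl3 in hepatocytes. They were Cyp7a1, Cyp8b1, Cyp27a1, Cyp7b1 and Baat for synthesis and conjugation, Abcb11, Slc10a1 and Slco1b2 for transport, and Nr0b2 and Nr1h4 for regulation. A region was counted for a gene when the authors' table gives that gene's transcription start site (TSS) as the closest one. This gave 48 of the 69549 distinct regions. Of these, 11 had their centre within 1000 bp of the TSS and are called promoter regions, and 37 lay farther away. Baat had 2 promoter regions and each other gene had 1. Abcb11 had no region apart from its promoter.

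Mettl3 is the catalytic subunit of the complex that methylates adenosine in mRNA. In ATAC-seq the transposase Tn5 inserts adaptors into open chromatin, so the reads over a region measure its accessibility. One library came from Mettl3 flox/flox livers, which carry the floxed allele but no Cre, and 1 from Mettl3-HKO livers, which carry the same floxed alleles and Alb-Cre+/-, a Cre driven by the albumin promoter and active in hepatocytes. All mice were on the C57BL/6 background, were 8 weeks old and ate normal chow, and each library pooled the livers of 4 mice. Because each group is 1 pooled library, no spread between mice is known, and no difference could be tested against one. The intervals given are exact 95% Clopper-Pearson intervals for counting error only. Other cells of the liver keep Mettl3, and a change in the share of hepatocyte nuclei cannot be told apart from a change in accessibility per nucleus.

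Bile acids are made from cholesterol in hepatocytes. The classical pathway starts with Cyp7a1, its rate-limiting enzyme, and Cyp8b1 then adds the 12-hydroxyl group that makes cholic acid. An alternative pathway starts with Cyp27a1, the mitochondrial sterol 27-hydroxylase, and uses Cyp7b1, the oxysterol 7-hydroxylase. Baat joins the acids to taurine or glycine, and Abcb11 (the bile salt export pump, BSEP) moves them into bile. Slc10a1 (NTCP) and Slco1b2 (an organic anion transporting polypeptide) take them back up from blood. Nr1h4 (FXR) is the nuclear receptor that bile acids bind, and Nr0b2 (SHP) is the corepressor it induces, which represses Cyp7a1 and Cyp8b1.

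The start sites of the genes whose promoters differed most, and of the exporter and a second uptake transporter for contrast, are shown as RefSeq sequences on GRCm38.p6. Each runs from 250 bases before a RefSeq start to 50 bases from it, 5′ to 3′ on the strand of the gene. Capitals mark exact matches on either strand to AGGTCA (the nuclear receptor half-site, TGACCT on the other strand), GTTAAT (the HNF1 half-site) or TATAAA (the TATA box). All 300 bases of each window lay inside a region described here, except for Slco1b2, where 233 did.
Cyp8b1, chr9:121916256-121916555, minus strand: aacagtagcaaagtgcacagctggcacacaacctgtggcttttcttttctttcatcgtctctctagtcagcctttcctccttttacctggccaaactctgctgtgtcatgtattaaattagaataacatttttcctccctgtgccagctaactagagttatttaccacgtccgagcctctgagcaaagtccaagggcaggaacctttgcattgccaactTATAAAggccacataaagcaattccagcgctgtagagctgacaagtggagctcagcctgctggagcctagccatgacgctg
Slc10a1, chr12:80968030-80968329, minus strand: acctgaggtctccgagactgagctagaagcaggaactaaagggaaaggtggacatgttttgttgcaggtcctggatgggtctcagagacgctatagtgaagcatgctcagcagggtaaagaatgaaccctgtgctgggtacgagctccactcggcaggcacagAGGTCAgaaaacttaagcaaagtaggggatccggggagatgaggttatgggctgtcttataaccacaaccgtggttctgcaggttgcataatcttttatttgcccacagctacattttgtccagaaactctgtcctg
Nr0b2, chr4:133553126-133553425, plus strand: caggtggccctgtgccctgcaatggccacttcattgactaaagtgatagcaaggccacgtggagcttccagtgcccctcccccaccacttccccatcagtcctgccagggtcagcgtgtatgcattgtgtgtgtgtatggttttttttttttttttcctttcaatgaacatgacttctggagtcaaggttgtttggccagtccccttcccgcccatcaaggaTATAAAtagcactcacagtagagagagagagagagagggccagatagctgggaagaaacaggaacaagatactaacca
Abcb11, chr2:69342567-69342866, minus strand: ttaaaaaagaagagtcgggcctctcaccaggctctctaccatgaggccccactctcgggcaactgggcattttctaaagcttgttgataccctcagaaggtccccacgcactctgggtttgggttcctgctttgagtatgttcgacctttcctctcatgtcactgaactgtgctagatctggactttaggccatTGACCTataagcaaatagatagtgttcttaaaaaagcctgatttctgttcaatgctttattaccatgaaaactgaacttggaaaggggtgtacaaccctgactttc
Slco1b2, chr6:141629268-141629567, plus strand: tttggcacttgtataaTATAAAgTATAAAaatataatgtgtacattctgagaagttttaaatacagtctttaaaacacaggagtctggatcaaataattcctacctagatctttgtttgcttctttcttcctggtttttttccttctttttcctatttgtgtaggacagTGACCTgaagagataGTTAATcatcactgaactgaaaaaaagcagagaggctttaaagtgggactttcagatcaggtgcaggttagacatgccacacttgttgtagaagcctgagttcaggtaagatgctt

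The windows differed in the letters they held. Cyp8b1 and Nr0b2 had a TATAAA beginning 31 and 28 bases before the start, a match found in 13.6% of the 32817 windows of the table. Slc10a1 and Abcb11 had 1 half-site each, beginning 87 and 56 bases before the start, and 16.3% of windows hold one. Slco1b2 held all 3 kinds, with GTTAAT, found in 7.1% of windows, 66 bases before the start. Its TATAAA matches began 234 and 227 bases before the start, in the part of the window outside the region. The longer LRH-1 (Nr5a2) site TCAAGGTCA, in 0.424% of windows, and 2 half-sites spaced by 1 base, inverted (3 windows) or direct (13 windows), were in none of the members' windows. AGGTCA is part of that site and of both spaced pairs. GC content was 35.3% in the Slco1b2 window and 45.3% to 49.7% in the other windows shown, against a median of 52.7% over all windows. RefSeq windows were matched for 7 of the 10 genes, and Cyp7a1, Cyp7b1 and Baat had none in the table. A match is a string of letters and not evidence of binding.

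The libraries differed as a whole, and each value has to be read against that. Library totals recovered from the deposited values were 52826202 for Mettl3 flox/flox and 58038305 for Mettl3-HKO, and 31.7% and 22.3% of these lay on the regions. Log2 ratios are of Mettl3-HKO over the flox/flox library. On the scale of these totals, which is the authors', their median was −0.38 over all regions, −0.56 over the 14387 promoter regions and −0.27 over the 55162 other regions. Ratios are therefore given on the authors' scale, and after subtracting the median of all regions where it matters (called centred). The defining markers of the liver cell types moved in different directions. Summed promoter signal of 8 hepatocyte genes was 118 RPM (reads scaled to a common library size) in Mettl3 flox/flox and 68.6 in Mettl3-HKO, and all 8 had a promoter region. Of their 9 promoter regions 3 were at least 2-fold lower, those of Pck1, Ttr and Serpina1a, where 16.3% of all promoter regions were, and none of them stayed so after centring. The Ttr region had a peak in Mettl3 flox/flox only, and none of the 9 was 2-fold higher. Promoter signal of the 7 endothelial genes of 8 that had a region summed to 3.03 and 7.01 RPM, and 5 of those regions (Stab2, Kdr, Lyve1, Cdh5 and Tek) were at least 2-fold higher, where 4.07% of all promoter regions were. Macrophage signal (2 genes of 8; C1qa and a region of Cd14 past 2-fold) summed to 1.65 and 3.24 RPM, and stellate (2 of 8) to 13.8 and 3.05. The 2-fold higher endothelial and macrophage regions had a peak in Mettl3-HKO only, so they entered the table through the library where they are high, as did 14928 of all regions, of which 7955 were at least 2-fold higher. The stellate sum was carried by Reln, which was past 2-fold lower, while Col1a1 had 37 and 43 counts (log2 ratio 0.08). The remaining markers of these 4 lists, and all 8 of lymphocytes, had no promoter region in the table. The part of these shifts in the values of the bile acid genes was not tested. The Mettl3 promoter itself had 566 and 392 counts (log2 ratio −0.66), which does not check the knockout, because Cre removes a floxed stretch and not the promoter.

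At the promoters of the 10 genes, 10 of 11 regions had a log2 ratio below 0 and 1, that of Cyp7a1, lay above it, and the same counts held after centring. Above 0 were 16.1% of all promoter regions on the authors' scale and 33.6% after centring. With the strongest promoters set to 0 instead, 4 lay above it (58.3% of all promoter regions did), with Nr1h4 and both Baat regions beside Cyp7a1. The median log2 ratio was −0.73, against −0.56 over all promoter regions. Their summed signal was 105 RPM in Mettl3 flox/flox and 60.5 in Mettl3-HKO, on 9380 bp, a log2 ratio of −0.79. At least 2-fold lower were 3 of the 11 (27.3%), Cyp8b1, Slc10a1 and Nr0b2, where 16.3% of all promoter regions were. None of the 11 was 2-fold higher on this scale, against 4.07%. After centring, 2 were 2-fold lower (Cyp8b1 and Slc10a1, background 5%) and 1 was 2-fold higher (Cyp7a1, background 6.90%). A peak had been called in both libraries at all 11.

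**Figure D1:**
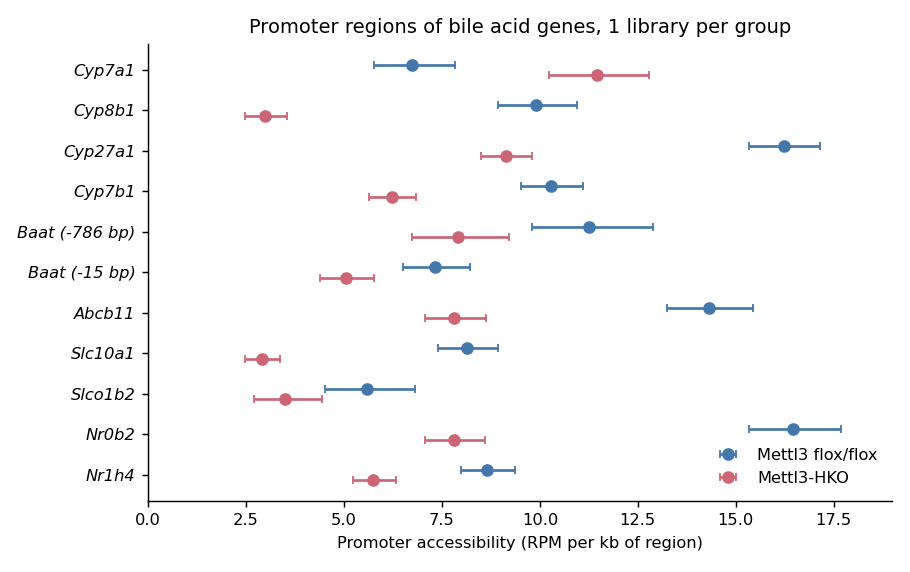
Accessibility of the 11 promoter regions of the 10 bile acid genes in RPM per kb of region (x axis) in the Mettl3 flox/flox (blue) and Mettl3-HKO (red) library, with bars for the 95% Poisson interval of the count. Cyp7a1 lies to the right in Mettl3-HKO, from 6.73 to 11.5, and every other region lies to the left on this scale of the authors.

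The promoter of Cyp7a1 was the one of the 11 with more signal in Mettl3-HKO. Its region (chr4:6275534-6276011, 478 bp, centre 141 bp upstream of the TSS and reaching into exon 1) had 170 counts in Mettl3 flox/flox and 318 in Mettl3-HKO. These are 3.24 and 5.50 RPM, with a log2 ratio of 0.76 (interval 0.49 to 1.05). The interval lies above 0, and centring raised the ratio to 1.14. It stood at the 94.4th percentile of all promoter regions.

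The promoter of Cyp8b1, a later enzyme of the classical pathway, went the other way. The region (chr9:121915840-121916563, 724 bp, centre 104 bp downstream of the TSS within the exon) had 379 counts in Mettl3 flox/flox and 125 in Mettl3-HKO. The log2 ratio was −1.73 (−2.04 to −1.44) on the authors' scale and −1.35 after centring. It was the lowest of the 11 and stood at the 1.59th percentile of all promoter regions. The ratio of Cyp7a1 relative to Cyp8b1 does not depend on how the libraries are scaled. It was 5.66-fold higher in Mettl3-HKO, a log2 difference of 2.50 (2.09 to 2.91), for a pair chosen after its values were seen.

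The enzymes of the alternative pathway and of conjugation lay nearer the middle of all promoters. Cyp27a1 (chr1:74712745-74714201, 1457 bp, centre 101 bp upstream) had the most counts of the 11, 1249 in Mettl3 flox/flox and 773 in Mettl3-HKO, a log2 ratio of −0.83 (−0.96 to −0.70). Cyp7b1 (chr3:18242847-18244052, 1206 bp, centre 111 bp upstream) had 655 and 435 counts, a log2 ratio of −0.73 (−0.90 to −0.55). Their ratios lay above those of 26.8% and 35.1% of all promoter regions. Cyp7a1 and Cyp7b1 encode 7-hydroxylases of the 2 pathways, and the log2 difference between their promoters was 1.49 (1.16 to 1.82).

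Baat had its promoter signal in 2 neighbouring regions. The region at the TSS (chr4:49506202-49506943, 742 bp, centre 15 bp upstream) had 287 counts in Mettl3 flox/flox and 217 in Mettl3-HKO, a log2 ratio of −0.54 (−0.80 to −0.28). The other (chr4:49507168-49507520, 353 bp, centre 786 bp upstream) had 210 and 162, a log2 ratio of −0.51 (−0.82 to −0.21). Their log2 difference was −0.03 (−0.43 to 0.37), an interval that includes 0, and both stood close to the median of all promoters. RefSeq places the outermost Baat start 1358 bp upstream of the authors' TSS, so the farther region lies within the RefSeq gene.

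Among the transporters, the uptake carrier Slc10a1 had the lowest promoter ratio. Its region (chr12:80967567-80968589, 1023 bp, centre 627 bp downstream of the TSS in intron 1) had 440 counts in Mettl3 flox/flox and 172 in Mettl3-HKO. The log2 ratio was −1.49 (−1.75 to −1.23), at the 3.46th percentile of all promoter regions, and −1.11 after centring. The region ended 116 bp short of the authors' TSS. RefSeq has a further Slc10a1 start 626 bp downstream of that TSS, and its whole window, the one printed, lay in the region, while the window at the authors' TSS overlapped no Slc10a1 region.

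The other transporters differed less. Abcb11 (chr2:69342337-69343201, 865 bp, centre 168 bp upstream) had 654 counts in Mettl3 flox/flox and 392 in Mettl3-HKO, a log2 ratio of −0.87 (−1.06 to −0.69). Slco1b2 (chr6:141629335-141629660, 326 bp, centre 21 bp upstream) had the fewest counts of the 11, 96 and 66, and a log2 ratio of −0.67 (−1.15 to −0.21). Both intervals lie below 0, and they overlap. Relative to Slc10a1 the ratio of Slco1b2 was 1.76-fold higher and that of Abcb11 1.53-fold higher, with log2 differences for Slc10a1 of −0.81 (−1.35 to −0.27) and −0.62 (−0.94 to −0.30).

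Of the regulators, the corepressor Nr0b2 had the lower ratio. Its promoter (chr4:133552717-133553601, 885 bp, centre 217 bp upstream) had 770 counts in Mettl3 flox/flox and 401 in Mettl3-HKO, a log2 ratio of −1.08 (−1.25 to −0.90). It stood at the 12.9th percentile, and centring took it to −0.70, short of 2-fold. Nr1h4 (chr10:89532523-89533843, 1321 bp, centre 402 bp downstream in intron 1) had 604 and 441 counts, a log2 ratio of −0.59 (−0.77 to −0.41), close to the median of all promoters. Nr0b2 minus Nr1h4 gave a log2 difference of −0.49 (−0.74 to −0.23).

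**Figure D2:**
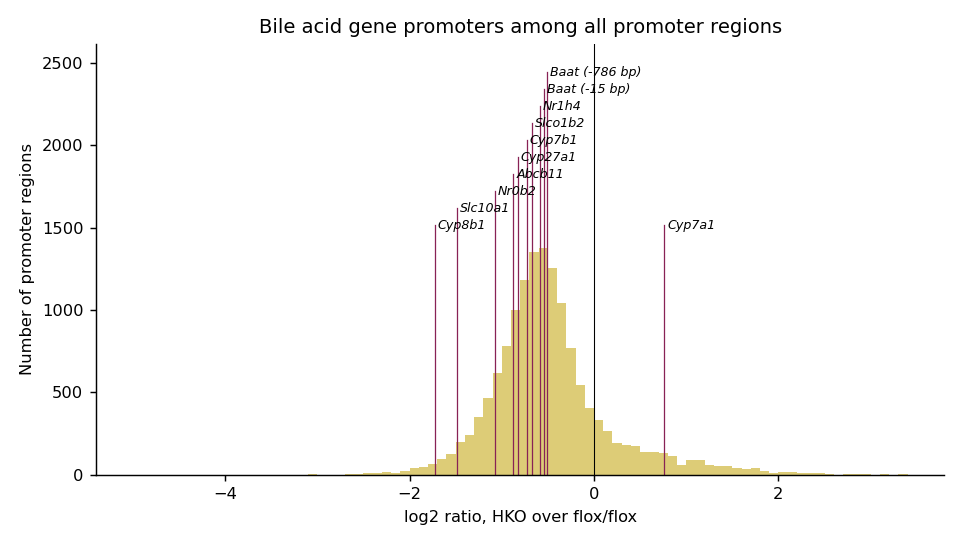
Number of promoter regions (y axis, all 14387) by log2 ratio, Mettl3-HKO over flox/flox (x axis, bins of 0.1 on the authors' scale), with a labelled line for each of the 11 promoter regions of bile acid genes. Cyp8b1 and Slc10a1 lie in the lower tail and Cyp7a1 in the upper tail, with the other 8 lines between −1.08 and −0.51.

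The order of the promoters by signal per kb also differed between the libraries. In Mettl3 flox/flox, Nr0b2 (16.5 RPM per kb), Cyp27a1 (16.2) and Abcb11 (14.3) led, and their Poisson intervals did not reach the next region, Baat at 786 bp upstream (11.3). From there down each neighbour overlapped the next, through Cyp7b1 (10.3), Cyp8b1 (9.91), Nr1h4 (8.66), Slc10a1 (8.14), Baat at the TSS (7.32) and Cyp7a1 (6.73) to Slco1b2 (5.57). Cyp7a1 thus stood at rank 10 of the 11. In Mettl3-HKO it had rank 1 (11.5), without overlap with Cyp27a1 (9.14). Then came Baat at 786 bp upstream (7.91), Abcb11 (7.81) and Nr0b2 (7.81), the last 2 of which did not overlap with Cyp7b1 (6.21), while the Baat region did. Nr1h4 (5.75) and Baat at the TSS (5.04) followed. Slco1b2 (3.49), Cyp8b1 (2.97) and Slc10a1 (2.90) were last, each overlapping its neighbour. This order depends on dividing by the width of each region, which was 478 bp for Cyp7a1. By count in Mettl3-HKO, Cyp7a1 (318) stood below Cyp27a1 (773), Nr1h4 (441), Cyp7b1 (435), Nr0b2 (401) and Abcb11 (392).

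The 37 regions farther than 1000 bp from a TSS had a median log2 ratio of −0.39, against −0.27 over all such regions. Of these, 5 (13.5%) were at least 2-fold lower and 1 (2.70%) at least 2-fold higher, where 18.8% and 15.6% of all such regions were. Below 0 were 27 and above 0 were 10 (27.0%, against 40.2% of all such regions), and after centring 19 and 18 (48.6% above 0, against 54.3%). The 19 upstream regions had a median of −0.39 and the 18 downstream regions one of −0.37. All such regions were split into 10 groups by mean signal. The median log2 ratio was 0.86 in the weakest group and −0.67 in the strongest. The 37 had a median of 153 counts in Mettl3 flox/flox, against 66 for all such regions. The shares above therefore compare regions of unlike signal. Centred on the group of like signal, a scale chosen after seeing the data, the median of the 37 was 0.15. How far signal accounts for these differences was not tested. Counts were low in many of the 37, and 5 had a peak in Mettl3-HKO only and 9 in Mettl3 flox/flox only. Over all 48 regions these are 10.4% and 18.8%, against 21.5% and 16.8% of all regions. A region with a peak in 1 library entered the table through that library, where it tends to be high. Above 0 were 94.6% of all regions with a peak in Mettl3-HKO only and 3.01% of those with one in Mettl3 flox/flox only, so the direction of such a region carries little weight.

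**Figure D3:**
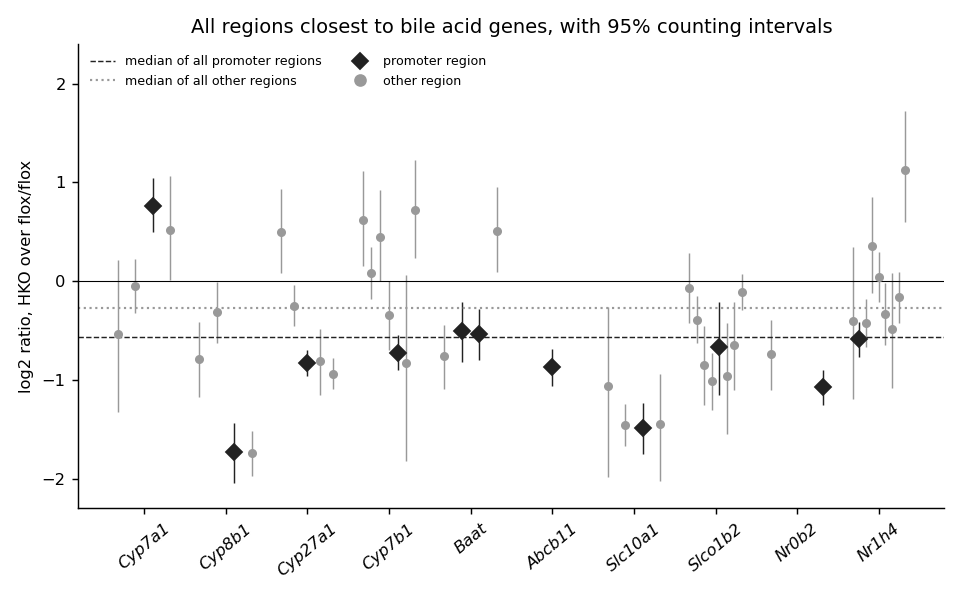
Log2 ratio, Mettl3-HKO over flox/flox (y axis), for each of the 48 regions, by gene and in order of distance from upstream to downstream, with 95% counting intervals. Black diamonds are promoter regions and grey circles other regions, and the horizontal lines mark 0 and the medians of all promoter and all other regions. All Slc10a1 regions lie below −1, while Cyp7b1 and Nr1h4 spread on both sides of 0.

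Along Slc10a1 all 4 regions were at least 2-fold lower in Mettl3-HKO, and 3 of the 4 after centring. Of all promoter and all other regions 16.3% and 18.8% were 2-fold lower, and 5% and 8.65% after centring. Scaled to the counts on regions or to the strongest promoters, all 4 stayed below 0 and none was 2-fold lower. The promoter and the region 7527 bp upstream had a peak in both libraries, and the other 2 in Mettl3 flox/flox only. The strongest, 7527 bp upstream of the TSS (chr12:80975772-80976693), had 639 counts in Mettl3 flox/flox and 256 in Mettl3-HKO, a log2 ratio of −1.45 (−1.67 to −1.24). A region in intron 2, 2426 bp downstream, had 106 and 42 counts and the same log2 ratio of −1.45 (−2.02 to −0.94). One 13866 bp upstream had 37 and 19 counts, at −1.06. The promoter and the strongest upstream region differed in log2 ratio by −0.04 (−0.38 to 0.30). Summed over all 4 regions, those with a peak in 1 library included, the counts were 1222 and 489, a log2 ratio of −1.46 (−1.61 to −1.30).

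At Cyp8b1 the lower ratio covered the promoter and a region past the 3′ end of this single-exon gene, but was smaller upstream. The 3′ region (chr9:121912888-121914075, 2824 bp downstream of the TSS) had 631 counts in Mettl3 flox/flox and 207 in Mettl3-HKO, a log2 ratio of −1.74 (−1.98 to −1.52). It differed from the promoter by 0.01 (−0.38 to 0.39) on the log2 scale. The region 7349 bp upstream had 185 and 163 counts, at −0.32, which turned to 0.06 after centring. Promoter minus upstream region gave a log2 difference of −1.42 (−1.85 to −0.98). Another 7807 bp upstream had 153 and 97 counts, at −0.79.

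Around Cyp7a1 the promoter had the highest ratio of its 4 regions. The strongest of its 3 other regions, 3027 bp upstream (chr4:6278458-6278859), had 214 counts in Mettl3 flox/flox and 227 in Mettl3-HKO, a log2 ratio of −0.05, and the promoter exceeded it by 0.82 (0.43 to 1.21). A region 4895 bp downstream had 51 and 81 counts, at 0.52 (0.01 to 1.07). One 26796 bp upstream had 36 and 27, at −0.54 (−1.33 to 0.21). Both this region and the one 4895 bp downstream had a peak in Mettl3 flox/flox only. Over all 4 regions the counts were 471 and 653, a log2 ratio of 0.33 (0.16 to 0.51).

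**Figure D4:**
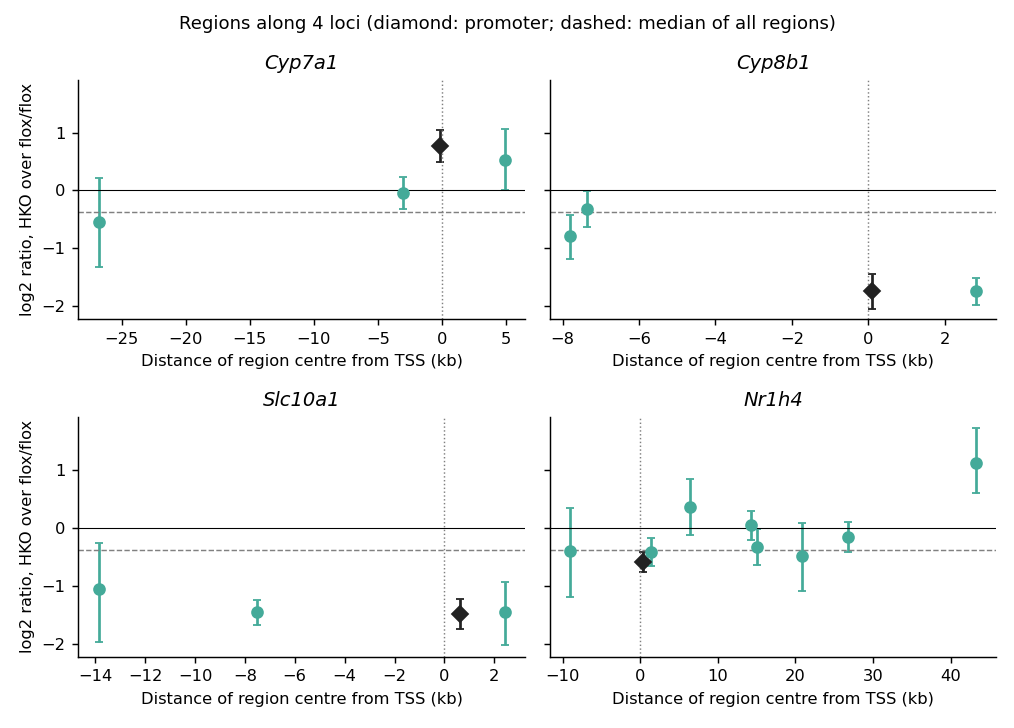
Log2 ratio, Mettl3-HKO over flox/flox (y axis), against the distance of the region's centre from the TSS in kb (x axis, negative is upstream), for Cyp7a1, Cyp8b1, Slc10a1 and Nr1h4, with 95% counting intervals. Diamonds are promoter regions, and the dashed line is the median of all regions, −0.38. The 4 Slc10a1 regions lie together below it, Cyp8b1 is low at the promoter and past its 3′ end, and Nr1h4 is highest at its farthest downstream region.

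The receptor gene Nr1h4 was uneven along its length. It has a second group of start sites inside the gene, from which other FXR isoforms are made, and RefSeq lists one 26927 bp downstream of the authors' TSS. The region holding that window (chr10:89506385-89507132) had 254 counts in Mettl3 flox/flox and 249 in Mettl3-HKO, a log2 ratio of −0.16, which turned to 0.21 after centring. The upstream promoter was lower than this by a log2 difference of −0.42 (−0.74 to −0.11). The printed letters of this internal start are the following, with capitals as before.
Nr1h4 internal start, chr10:89506609-89506908, minus strand: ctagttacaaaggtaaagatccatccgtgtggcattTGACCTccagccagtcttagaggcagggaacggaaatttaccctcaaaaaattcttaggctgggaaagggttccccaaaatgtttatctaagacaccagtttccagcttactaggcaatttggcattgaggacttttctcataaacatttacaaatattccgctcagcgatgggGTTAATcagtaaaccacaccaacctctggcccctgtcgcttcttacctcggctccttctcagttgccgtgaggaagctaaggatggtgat
It held TGACCT 214 bases and GTTAAT 40 bases before the start.

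Farther into Nr1h4, a region in intron 3 (chr10:89490150-89490482, 43269 bp downstream) was the one region of the 37 past 2-fold higher. It had 39 counts in Mettl3 flox/flox and 95 in Mettl3-HKO, a log2 ratio of 1.13 (0.60 to 1.72). Promoter minus intron region gave a log2 difference of −1.74 (−2.34 to −1.15). The region next to the promoter, 1399 bp downstream, had 317 and 260 counts, at −0.42. On the authors' scale Nr1h4 had 6 regions below 0 and 3 above, with a summed log2 ratio of −0.26, but the direction turned with the scaling. After centring 4 were below and 5 above, with a sum of 0.11, and 8 and 9 of the 9 were above when scaled to the counts on regions or to the strongest promoters. The Nr1h4 regions 9040 bp upstream and 20799 bp downstream had a peak in Mettl3 flox/flox only. The one 6355 bp downstream had a peak in Mettl3-HKO only.

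Cyp7b1, a long gene, also had regions on both sides of 0. Its strongest region apart from the promoter, 7933 bp upstream (chr3:18251027-18251517), had 224 counts in Mettl3 flox/flox and 261 in Mettl3-HKO, a log2 ratio of 0.08. Those 11130 bp upstream (60 and 102 counts) and 29622 bp downstream in intron 1 (55 and 100 counts) had log2 ratios of 0.62 (0.16 to 1.11) and 0.72 (0.24 to 1.23). So 4 of its 7 regions were above 0, unlike its promoter, and 2 of the 4, at 11130 and 3073 bp upstream, had a peak in Mettl3-HKO only.

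The remaining genes stayed below 0 in most regions. All 8 Slco1b2 regions were below 0, and 6 after centring, from the strongest, in intron 3 at 11472 bp downstream (504 and 514 counts, log2 ratio −0.11), to the lowest at 13994 bp upstream (289 and 157 counts, −1.01), and 2 of the 8 had a peak in Mettl3 flox/flox only. At Cyp27a1 the strongest other region, in intron 1 at 8075 bp downstream (chr1:74721184-74722115), had 944 and 542 counts, a log2 ratio of −0.94 (−1.09 to −0.78), close to its promoter. Cyp27a1 also had a region above 0, 15934 bp upstream and inside another gene, Ttll4, with 77 and 120 counts (0.50, 0.08 to 0.94). Baat had 201 and 130 counts at 4100 bp upstream (−0.76), and in the other direction 75 and 118 at 3199 bp downstream (0.51, 0.09 to 0.96). Both regions above 0 had a peak in Mettl3-HKO only. Nr0b2 had 168 and 110 counts at 1142 bp upstream (−0.74), the first region beyond the 1000 bp limit.

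Another 13 regions lay inside Abcb11, Cyp7b1, Nr1h4 or Slco1b2 but were closest to the TSS of a different gene, so they are no part of the 48. At least 2-fold higher were 4 of them (15.6% of all regions beyond 1000 bp were) and 2 were at least 2-fold lower (18.8% were), the latter in Cyp7b1. The highest was in intron 13 of Slco1b2, with 12 counts in Mettl3 flox/flox and 78 in Mettl3-HKO, a log2 ratio of 2.47 (1.68 to 3.58). In Abcb11 a pair of low regions had 11 and 34, and 15 and 36, counts in Mettl3 flox/flox and Mettl3-HKO, opposite in direction to the promoter. All 4 that were higher on the authors' scale had a peak in Mettl3-HKO only.

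Further genes of the bile acid pathway were listed by role, 14 each for synthesis and conjugation, transport and regulation. Of these 42 genes 31 had a promoter region, 38 regions in all, with a median log2 ratio of −0.64. Above 0 were 4 of the 38, where 16.1% of all promoter regions were, and 6 after centring, where 33.6% were, and 5 (all of regulators) were at least 2-fold lower and none higher, against the 16.3% and 4.07% of all promoter regions. In synthesis (10 genes, 12 regions) the median was −0.50, in transport (10 genes, 11 regions) −0.64, and in regulation (11 genes, 15 regions) −0.69.

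The 5 regions belonged to 3 regulators. Fgfr4, the hepatocyte receptor for the gut hormone FGF15 that restrains Cyp7a1, had 751 counts in Mettl3 flox/flox and 249 in Mettl3-HKO, a log2 ratio of −1.72 (−1.94 to −1.52). Nr1i3 (CAR), a nuclear receptor for foreign compounds and bile acid detoxification, had 3 regions, with 333 and 107, 286 and 105, and 225 and 81 counts. Their log2 ratios were −1.76, −1.57 and −1.60, and the region with 286 and 105 counts had a peak in Mettl3 flox/flox only. Rxra, the partner with which FXR binds DNA, had 280 and 144 counts at 979 bp upstream (−1.09) and 562 and 323 at its TSS-proximal region (−0.93). After centring, the Fgfr4 and Nr1i3 regions stayed at least 2-fold lower and that of Rxra did not.

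Other regulators were nearer to the background. Klb, the coreceptor of Fgfr4, had 442 and 300 counts (−0.69), and Nr5a2 (LRH-1), an activator of Cyp7a1 and Cyp8b1, had 762 and 536 at its main promoter region (−0.64). Hnf4a, a hepatocyte transcription factor, had 418 and 239 counts (−0.94). The 4 further regions above 0 were those of Abcc4, a basolateral exporter (238 and 352 counts, log2 ratio 0.43, 0.19 to 0.67), 2 of the 3 of Slc27a5, the bile acid CoA ligase (139 and 199, 0.38; 349 and 389, 0.02), and Cyp2c70, which makes muricholic acids in mice (115 and 137, 0.11). None of these 4 passed 2-fold.

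**Figure D5:**
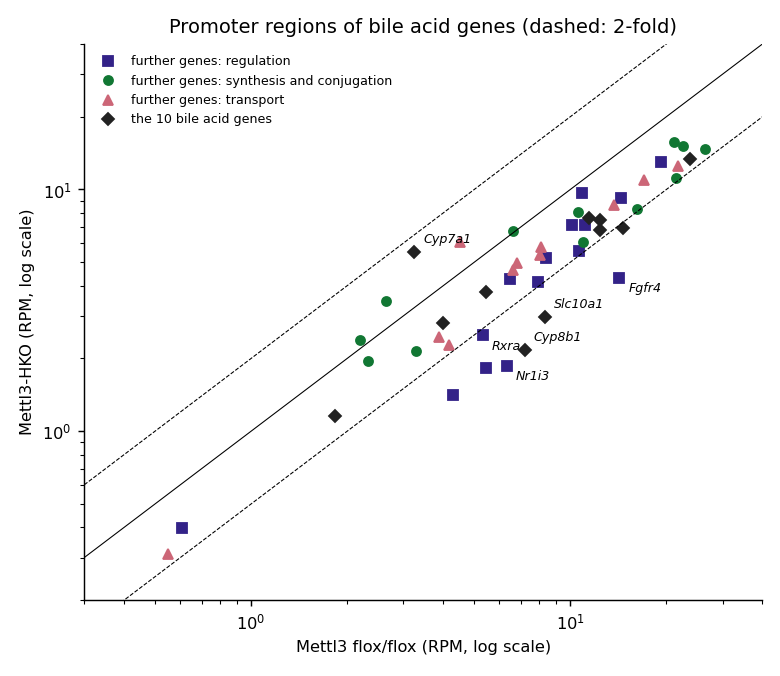
Promoter signal in RPM in Mettl3-HKO (y axis, log scale) against Mettl3 flox/flox (x axis, log scale) for the 11 promoter regions of the 10 bile acid genes (black diamonds) and the 38 of further genes by role (coloured). The solid line is equality and the dashed lines 2-fold; below the lower dashed line are Cyp8b1, Slc10a1, Nr0b2, Fgfr4, Rxra and the 3 Nr1i3 regions, and Cyp7a1 lies above equality.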

How the data were processed

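ATAC-seq of 1 Mettl3 flox/flox and 1 Mettl3-HKO liver library was used, each pooled from 4 mice. Per the study's methods the authors trimmed adaptors with skewer, aligned reads with BWA, filtered for mapping quality, proper pairs and non-mitochondrial reads, and called peaks with MACS2 with all duplicates kept. The sample records give the genome build as GRCm38. How peaks were merged, how reads were counted and whether Tn5 ends were shifted is not given in the sources used here. For every region the authors deposited a raw count per library and its RPM, which equals the count plus 1 over a library total. Their log2 fold change and fold enrichment columns were not used. No column of another sample was present.

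Of 74821 rows, 5272 repeats of a region were left out, and starts were converted to count from 1. Log2 ratios were computed from the counts with 1 added. Clopper-Pearson intervals (95%), set on the Mettl3-HKO share of both counts, conditional exact intervals for differences between regions and Poisson intervals for levels cover counting error only, and duplicates make counts less independent. The promoter regions of the 10 genes held 96 to 1249 counts in Mettl3 flox/flox and 66 to 773 in Mettl3-HKO. No test across mice was possible with 1 library per group, so counts past 2-fold are given beside the share of all regions past it. Named were every promoter region of the 10 genes and, among their other regions, the 3 highest and 3 lowest ratios with at least 50 counts and the strongest of each gene. Further genes and markers were named when past 2-fold at a promoter. The result of 1 further marker list is not reported here. Regions outside this rule, the regions nearest to another TSS and the pairs compared were chosen after their values were seen. Outside the rule were the Nr1h4 internal start and regions beside the Cyp7a1, Cyp8b1, Cyp27a1, Cyp7b1, Baat, Slc10a1, Slco1b2 and Nr1h4 promoters. So were Col1a1, Klb, Nr5a2, Hnf4a, Abcc4, Slc27a5, Cyp2c70 and Mettl3. The members and lists were chosen with earlier results of these data known. Alternatives were other scalings, an added count of 10, promoter windows of 500 and 2000 bp, signal and peak filters and a 1.5-fold threshold. Centring on regions of like signal was chosen after seeing the data. The scripts were tested on simulated data. Calculations used scipy 1.17.1, pandas 2.3.3 and numpy 2.4.6 under Python 3.11.15, and plots matplotlib 3.10.9.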

Additional observations from a re-analysis of the deposited data

How the results depend on the processing

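No paired analysis was possible because there was 1 library per group, and no replicate could be left out. Scaling to the counts on regions, and centring on all regions or on the strongest 10% of promoter regions, shift every log2 ratio up by 0.51, 0.38 and 0.65. Centred on all regions, the promoter median was −0.35, with 1 promoter 2-fold higher; other regions had a median of −0.012, 3 lower and 2 higher (8.65% and 23.5% of all such regions), and further genes a median of −0.26. Scaled to the counts on regions, the values were −0.21, 1 promoter lower and 1 higher (3.15% and 8.33% of all promoters); other regions reversed to 0.12, with 1 lower and 6 higher (6.42% and 26.7% of all, whose median was 0.24), and further genes stood at −0.13. Centred on the strongest promoters, they were −0.079, 1 lower and 1 higher (1.99% and 9.86%); other regions reversed to 0.26, with 1 lower and 8 higher (4.69% and 30.2% of all, median 0.37), and further genes reversed to 0.0093. Centred on regions of like signal, chosen after seeing the data, they were −0.20, 1 lower and 1 higher. Other regions reversed to 0.15, with 4 lower and 1 higher, and further genes stood at −0.019. No share of all regions past 2-fold is given on this scale, so its counts have no background beside them. Under each of these scalings Cyp7a1 was the promoter called higher and Cyp8b1 was called lower. Slc10a1 was also lower when centred on all regions, and was −0.97, −0.84 and −0.89 under the last 3 scalings. At 1.5-fold, 8 promoters were lower and 1 higher (47.8% and 7.27% of all), and 14 other regions lower and 3 higher (36.5% and 24.3%). Other regions lower fell to 3 with 10 counts added, in the upper 50% of signal and with peaks in both libraries, and those higher to 0 under the first 2. Of all 30929 other regions with peaks in both libraries, 4860 were lower and 1162 higher. For the first 2 settings no such share is given. Some regions of the 10 genes given above with a ratio came to lie on the other side of 0. Baat at 786 bp upstream (0.0035, 0.14, 0.0225) and Nr1h4 at 1399 bp (0.091, 0.23, 0.19) did so under counts on regions, strongest promoters and like signal, in that order. Baat at the TSS (0.11, 0.056) and the Nr1h4 promoter (0.057, 0.066) did so under the last 2. Cyp7a1 at 3027 bp upstream (0.33, 0.46, 0.60, 0.56) and Slco1b2 at 11472 bp (0.27, 0.40, 0.54, 0.57) did so under all 4, centring on all regions first, as did the Nr1h4 internal start (0.21, 0.35, 0.48, 0.45) and Cyp8b1 at 7349 bp upstream (0.06, 0.19, 0.33, 0.16). Cyp7a1 at 26796 bp upstream did so under strongest promoters only (0.11). Regions of the 10 genes given above without a ratio are not listed, though some of them also changed side. The cause of the library-wide shift was not tested.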
